A study of Homo sapiens with 2 samples.

Results

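The genes described are 10 members of the BCL2 family of apoptosis regulators: BCL2, BCL2L1, MCL1, BAX, BAK1, BBC3, BMF, BIK, BCL2L11 and PMAIP1. They were chosen by name and by protein class, with earlier results of these data known. Every probe set whose only gene symbol in the platform's annotation was one of these names was read, which gave 47 probe sets out of the 45278 with 1 gene symbol. The 10 genes are among 18244 genes read in this way. A probe set is the group of short probes that an Affymetrix array uses to measure 1 transcript region, and a gene can have several.

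BCL2 family proteins decide whether the outer membrane of the mitochondrion is opened, the step that commits a cell to intrinsic apoptosis. The effectors BAX and BAK1 form the pores that release cytochrome c. The antiapoptotic proteins BCL2, BCL2L1 (BCL-XL) and MCL1 hold the effectors in check, and the BH3-only proteins BBC3 (PUMA), BMF, BIK, BCL2L11 (BIM) and PMAIP1 (NOXA) relay stress by binding to them. In breast carcinoma cells the antiapoptotic members are known for protecting against detachment and cytotoxic drugs.

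RNA came from MDA-MB-231, a human breast carcinoma line of mesenchymal character without hormone receptors. The UGT8 knockdown group was 1 array of a single clone with stable knockdown of UGT8, the enzyme that makes galactosylceramide, and the control group was 1 array of the parental cells. Both were kept in DMEM with 5.6 mmol/L glucose and harvested 48 h after passage, and the labels do not give the knockdown reagent or any vector control. Clone and knockdown cannot be told apart in this design, nor can a change in the share of cells that express a gene from a change per cell. With 1 array in each group there was no replicate check, so no difference below was tested, and the number of arrays limits the precision. Levels are given as deposited, in log2 units after RMA (robust multi-array averaging), and every difference is the knockdown value minus the control value. RMA makes the arrays alike in their overall distribution, so a value of 0 means moving with most other transcripts, and levels of different probe sets are not compared.

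The targeted gene was lower in each of its 3 probe sets, with log2 differences of -2.34 to -1.68. The brightest UGT8 probe set read 6.61 on the knockdown array and 8.95 on the control array. The mesenchymal marker VIM read 13.9 on both arrays, and the progesterone receptor gene PGR read 3.45 on the knockdown array and 3.37 on the control array. The estrogen receptor gene ESR1 read 6.30 on the knockdown array and 6.31 on the control array, also under the floor defined below. ERBB2, CDH1 and EPCAM, usually low in the line, read above the median level of the arrays. Since levels of different probe sets are not comparable, these readings do not show how strongly the genes were expressed. EPCAM was higher on the knockdown array (8.97, against 8.34 on the control array). Defining markers of leukocytes (PTPRC, 3.40 on the knockdown array and 3.56 on the control array) and endothelial cells (CDH5, 4.61 on both) lay near or under the mean of the 23 background probe sets, which was 4.73 on both arrays. The 4 leukocyte markers read spanned 3.40 to 9.46 on the knockdown array and 3.56 to 9.33 on the control array. The 4 endothelial markers spanned 4.61 to 7.37 on the knockdown array and 4.61 to 8.46 on the control array, and the 4 fibroblast markers 4.11 to 6.69 and 4.47 to 8.04 on the same arrays. Of these markers CD14, PECAM1 and LUM were at least 1.5-fold lower on the knockdown array, and the part of such markers in the results was not tested.

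BBC3 and BMF were lower and BAK1 and BIK were higher on the knockdown array, each by at least 1.5-fold in the gene's brightest probe set, whereas the antiapoptotic genes stayed within 1.5-fold. BBC3 had the largest difference of the 10 genes, 2.10-fold lower, and was the only one past 2-fold. A level floor was set at the median of all probe sets that are no controls (log2 6.65, on the mean of both arrays), below which readings are dim. Of the 47 probe sets, 25 lay past this floor and 22 below it. The names of 14 of the 47 mark possible cross-hybridisation. By gene, 9 of the 10 lay past the floor in their brightest probe set, and BCL2 did not. Of the 25 probe sets past the floor, 5 were at least 1.5-fold higher, a share of 20.0% against 4.63% of all 22902 probe sets past the floor. They came from only 2 genes, 3 from BIK and 2 from BAK1. At least 1.5-fold lower were 2 of the 25, 1 of BBC3 and 1 of BMF, a share near the 7.07% of all probe sets. This split of 5 higher and 2 lower depended on the scale. It became 2 higher and 4 lower with differences centred on the poly-A control RNAs, where 726 of all 22902 were higher and 2081 lower. Centred on the hybridisation control RNAs it became 0 higher and 11 lower, where 98 of all 22902 were higher and 8917 lower. By brightest probe set, 2 of 9 genes were at least 1.5-fold higher, where 4.95% of 10426 genes were, and 2 of 9 were at least 1.5-fold lower, where 6.74% were. The single gene past 2-fold, BBC3, stands beside 1.54% of all genes that were at least 2-fold lower. Over the 9 genes the median difference was -0.11, beside 0.03 over all 10426 genes, with 4 above 0 and 5 below. Read by brightest probe set, genes of the family lay on both sides of 0 in each of the 3 classes, although the 2 BAX probe sets disagreed.

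**Figure D1:**
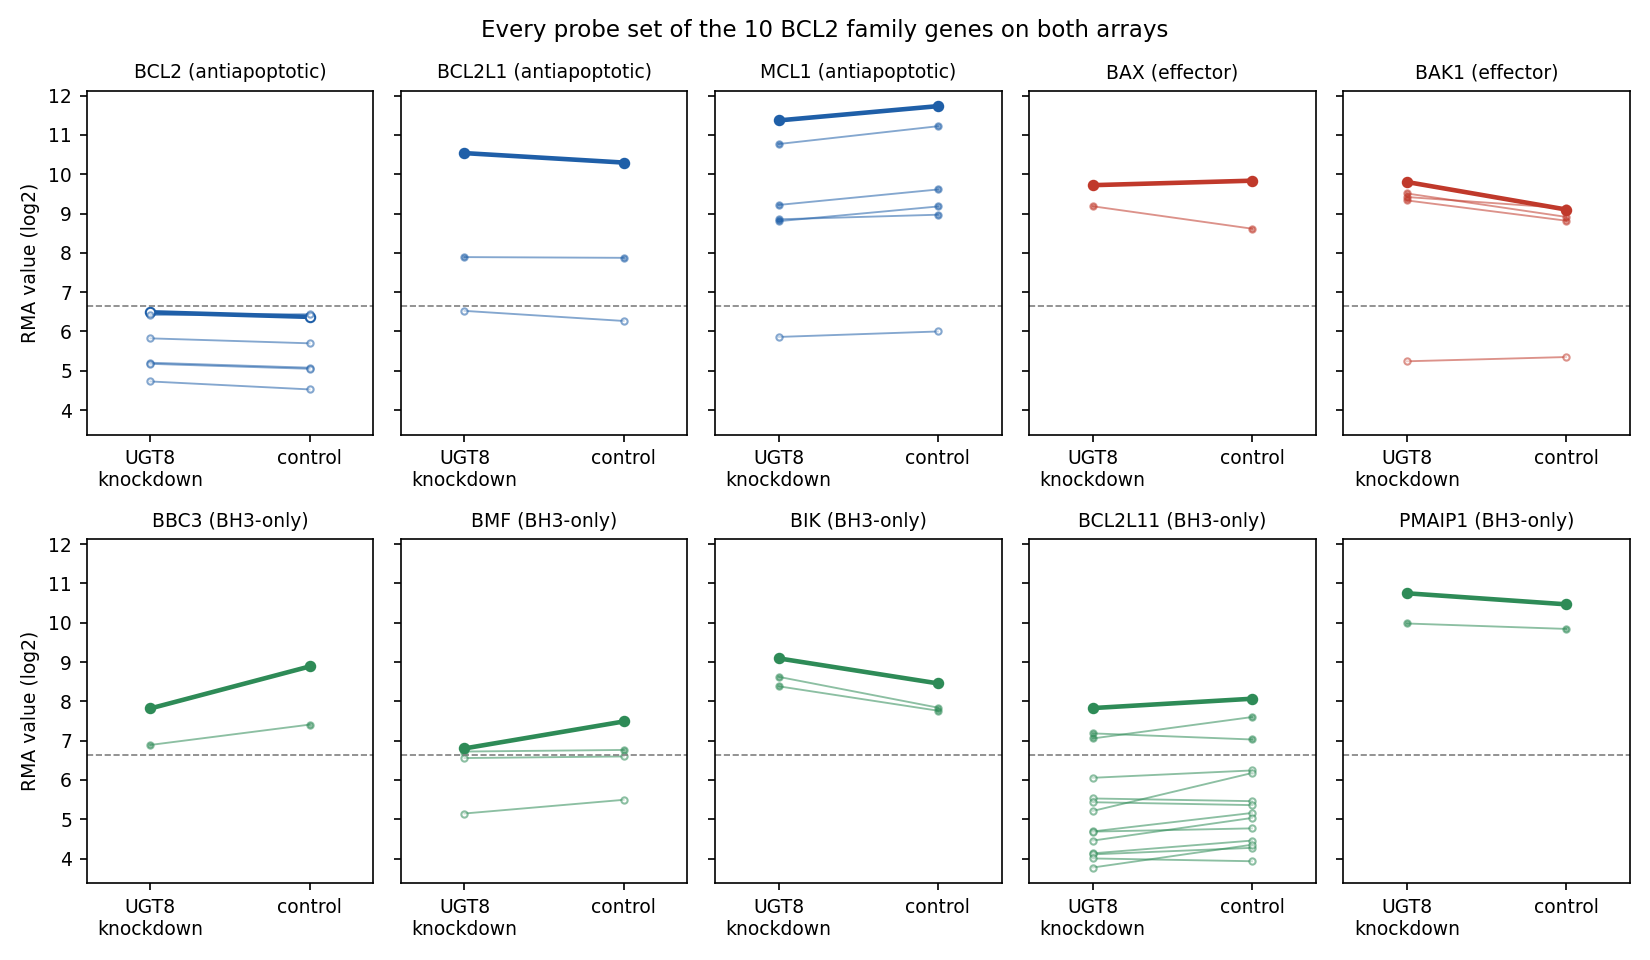
RMA value (log2) of every probe set of the 10 genes on the UGT8 knockdown array and the control array, 1 panel per gene and 1 line per probe set. The thick line is the gene's brightest probe set, open circles have a mean below the floor (dashed line, 6.65), and the lines of BIK all slope one way while those of BCL2L11 do not.

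Among the antiapoptotic genes, MCL1 was lower in all 6 probe sets and BCL2L1 was higher in all 3, although on the scale of the hybridisation controls described further on BCL2L1 lay below 0. MCL1, a short-lived protein that restrains BAK1, read 11.4 on the knockdown array and 11.7 on the control array in its brightest probe set, which is 1.29-fold lower (-0.36). Its next 4 probe sets, also past the floor, read 10.8, 9.22, 8.81 and 8.85 on the knockdown array, and 11.2, 9.61, 9.18 and 8.97 on the control array. The knockdown array was below the control array in each of them. The mean difference of the 5 was -0.34 ± 0.13 (SD, n = 5 probe sets, which share the same arrays), with extremes of -0.45 and -0.12. The remaining MCL1 probe set was dim, at 5.86 on the knockdown array and 6.00 on the control array. Its name and that of the brightest MCL1 probe set mark possible cross-hybridisation. No MCL1 probe set reached 1.5-fold.

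BCL2L1, whose long protein form blocks both effectors, read 10.5 on the knockdown array and 10.3 on the control array in its brightest probe set (0.24). This probe set has a name that marks possible cross-hybridisation. The second probe set hardly differed, at 7.89 on the knockdown array and 7.87 on the control array (0.02). The remaining dim one read 6.52 on the knockdown array and 6.27 on the control array (0.26). BCL2, the founding member, had 6 probe sets, and all of them lay below the floor. The brightest BCL2 reading was shared by 2 probe sets with the same mean level of 6.43, which pointed to opposite sides of 0. One read 6.49 on the knockdown array and 6.37 on the control array (0.12), and its name marks possible cross-hybridisation. The other, without such a name, read 6.42 on the knockdown array and 6.44 on the control array (-0.02). The other 4 BCL2 probe sets lay between 4.73 and 5.83 on the knockdown array and between 4.53 and 5.70 on the control array, with differences of 0.13 to 0.20. Of these, 3 gave the same difference to within 0.00002, so they are not independent readings.

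The effectors differed from each other in their brightest probe sets. BAK1, which sits in the outer mitochondrial membrane, was higher on the knockdown array in all 4 of its probe sets past the floor, although the brightest was within 1.5-fold on the hybridisation-control scale (0.19). The brightest read 9.80 on the knockdown array and 9.10 on the control array, 1.62-fold higher (0.70). The others read 9.42, 9.51 and 9.33 on the knockdown array, and 9.14, 8.91 and 8.82 on the control array, with differences of 0.28, 0.60 and 0.52. Their mean difference over the 4 was 0.52 ± 0.18 (SD over probe sets), so the size of the BAK1 difference depended on the probe set more than its direction did. The brightest BAK1 probe set carries a name that marks possible cross-hybridisation, and RefSeq lists BAK1 pseudogenes. Without such probe sets BAK1 was read by the probe set that differed by 0.28. The only dim BAK1 probe set read 5.24 on the knockdown array and 5.35 on the control array (-0.11). The brightest BAK1 difference was exceeded by 298 genes (2.86% of those past the floor).

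BAX, which moves from the cytosol to mitochondria when activated, had 2 probe sets that disagreed. The brighter read 9.72 on the knockdown array and 9.84 on the control array (-0.11), and the other read 9.18 on the knockdown array and 8.61 on the control array, 1.48-fold higher (0.57). Both lay well past the floor, and they are annotated to different transcript records. The second one is marked for possible cross-hybridisation. No single direction can be given for BAX. The regions around the annotated starts of both effectors are shown because their brightest probe sets differed in direction. They come from RefSeq's table for GRCh38.p14, from 250 bases before to 50 after the start. BAK1 is at chr6:33580227-33580526 on the minus strand and BAX at chr19:48954625-48954924 on the plus strand, both written 5′ to 3′. Capitals mark a match to the p53 half-site in BAK1 and to the E-box CACGTG in BAX.
BAK1: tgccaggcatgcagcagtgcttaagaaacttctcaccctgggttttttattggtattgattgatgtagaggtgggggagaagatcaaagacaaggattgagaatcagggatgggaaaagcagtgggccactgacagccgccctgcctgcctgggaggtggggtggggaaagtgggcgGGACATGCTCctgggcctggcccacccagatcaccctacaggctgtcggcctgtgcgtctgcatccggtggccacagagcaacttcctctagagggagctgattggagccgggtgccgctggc
BAX: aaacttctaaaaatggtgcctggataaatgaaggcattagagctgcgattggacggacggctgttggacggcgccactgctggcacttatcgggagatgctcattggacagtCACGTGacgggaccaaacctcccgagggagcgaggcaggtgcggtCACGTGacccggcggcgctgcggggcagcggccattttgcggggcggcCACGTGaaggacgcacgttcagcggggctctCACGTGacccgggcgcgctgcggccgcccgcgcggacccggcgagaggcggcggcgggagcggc
The BAX window held 4 copies of CACGTG, and BAK1 held none.

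**Figure D2:**
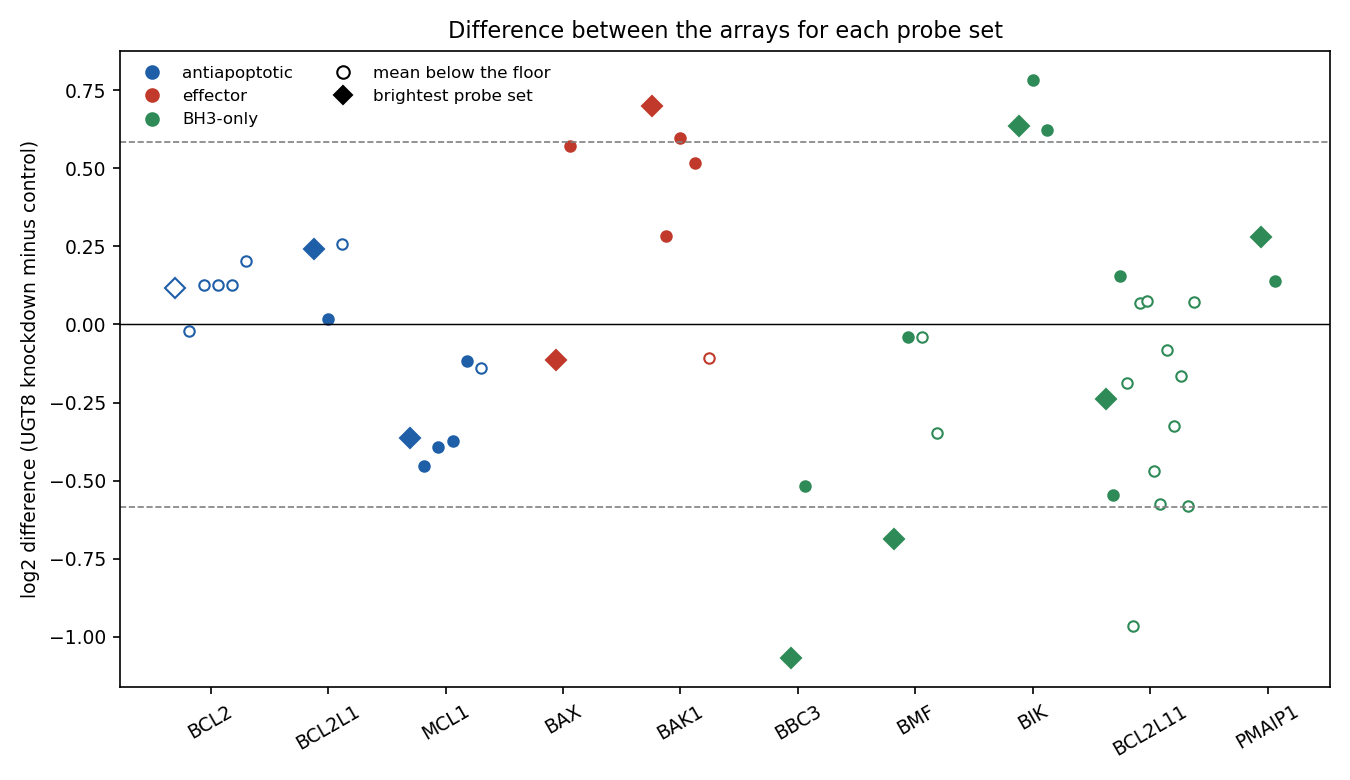
Log2 difference (UGT8 knockdown minus control) of each of the 47 probe sets, by gene and from bright to dim within a gene. Diamonds are the brightest probe set of a gene, open symbols have a mean below the floor, dashed lines mark 1.5-fold, and the 2 BAX probe sets lie on opposite sides of 0.

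The BH3-only genes split in direction. BBC3, a strong activator of apoptosis downstream of p53 and of growth factor loss, was lower in both of its probe sets. The brighter read 7.82 on the knockdown array and 8.89 on the control array (-1.07), which leaves 47.7% of the control signal. The other read 6.89 on the knockdown array and 7.41 on the control array, 1.43-fold lower (-0.52). Both probe sets lay past the floor and neither is marked for cross-hybridisation, and the brighter one had the larger difference. A more negative difference than in the brighter BBC3 probe set was read in 123 genes (1.18% of those past the floor). The sequence around the annotated BBC3 start is shown because this gene had the largest difference. It is at chr19:47232618-47232917 on the minus strand, and capitals mark a CACGTG and, further on, a match to the AP-1 motif TGANTCA.
BBC3: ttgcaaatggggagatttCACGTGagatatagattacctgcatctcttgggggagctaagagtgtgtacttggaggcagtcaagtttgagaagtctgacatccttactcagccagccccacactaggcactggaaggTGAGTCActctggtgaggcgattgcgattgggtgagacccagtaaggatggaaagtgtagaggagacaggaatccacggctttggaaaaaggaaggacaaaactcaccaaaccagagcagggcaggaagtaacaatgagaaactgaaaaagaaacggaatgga
This start is the one in the table, and BBC3 transcripts that begin elsewhere are not covered.

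BMF, a BH3-only protein held by dynein light chain on the actin cytoskeleton and released on detachment, was lower in its brightest probe set, at 6.80 on the knockdown array and 7.49 on the control array. That is 1.61-fold lower (-0.69), a difference that 513 genes (4.92%) went below. The second BMF probe set read 6.72 on the knockdown array and 6.76 on the control array (-0.04). A dimmer one gave the same difference, at 6.56 on the knockdown array and 6.60 on the control array. These 2 are therefore not independent readings. The dimmest read 5.15 on the knockdown array and 5.50 on the control array (-0.35). All 4 BMF readings were below 0, but only 1 passed 1.5-fold, and all lay near or under the floor on the knockdown array.

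BIK, a BH3-only protein of the endoplasmic reticulum, was at least 1.5-fold higher in all 3 of its probe sets on the deposited scale. Its brightest probe set was within 1.5-fold on the poly-A scale (0.56) and on the hybridisation-control scale (0.12). They read 9.09, 8.62 and 8.38 on the knockdown array, and 8.46, 7.84 and 7.76 on the control array, with differences of 0.64, 0.78 and 0.62. The mean difference was 0.68 ± 0.09 (SD over 3 probe sets), the narrowest spread among the member genes that reached 1.5-fold and close to the 0.08 that is typical of genes with several probe sets past the floor. The brightest BIK difference was exceeded by 398 genes (3.82%). The brightest BIK probe set has a name that marks possible cross-hybridisation, and the others do not. PMAIP1, a BH3-only protein that binds MCL1 and promotes its breakdown, was higher in both probe sets but within 1.5-fold, and on the hybridisation-control scale it too lay below 0. It read 10.7 and 9.98 on the knockdown array, and 10.5 and 9.84 on the control array, with differences of 0.28 and 0.14.

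BCL2L11, the BH3-only activator controlled by ERK and FOXO proteins, had 14 probe sets, of which 10 were below 0 and 4 above. The 3 past the floor did not share a direction. They read 7.83, 7.06 and 7.19 on the knockdown array, and 8.07, 7.60 and 7.03 on the control array, with differences of -0.24, -0.54 and 0.16. The 11 dim ones ranged from 3.77 to 6.06 on the knockdown array and from 3.93 to 6.24 on the control array. One of these dim probe sets was 1.95-fold lower (-0.97), at 5.21 on the knockdown array and 6.18 on the control array, and its name marks cross-hybridisation. BCL2L11 is spliced into many forms, and its probe sets are annotated to several transcript records, so they need not measure the same RNA.

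**Figure D3:**
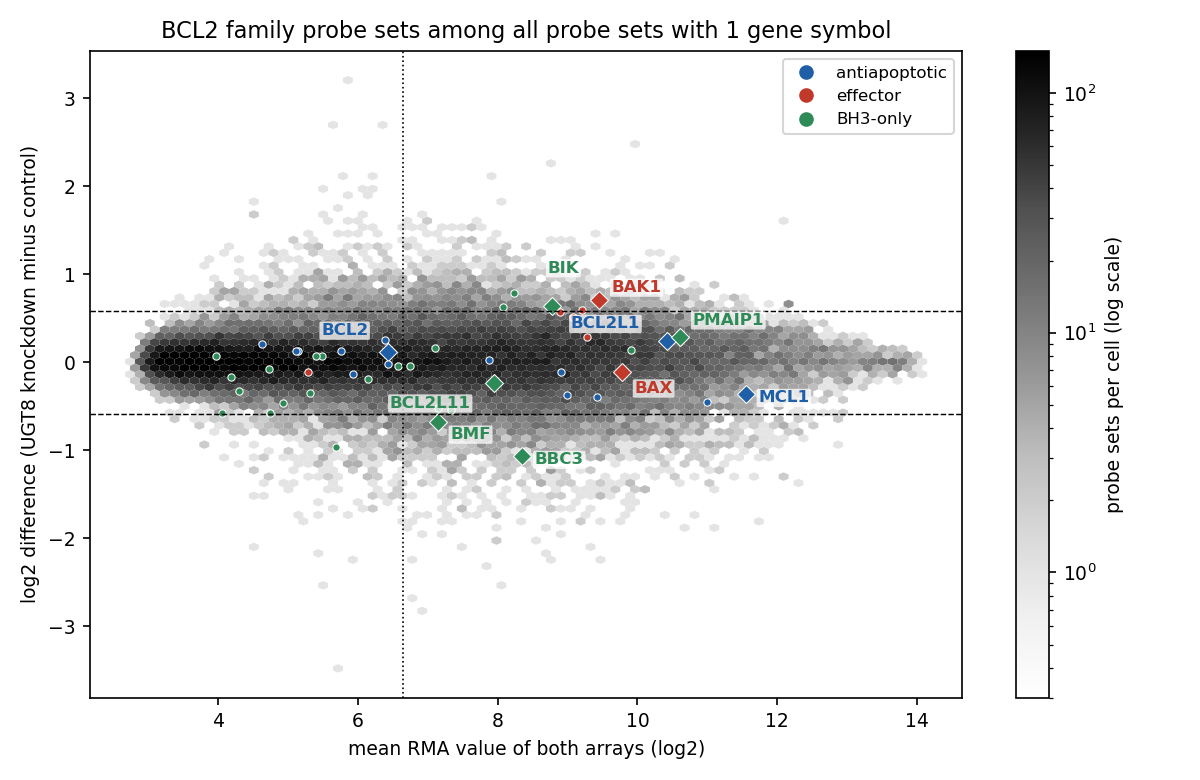
Log2 difference (UGT8 knockdown minus control) against the mean RMA value of both arrays for all 45278 probe sets with 1 gene symbol (grey, shaded by number) and for the 47 BCL2 family probe sets (coloured by class). Diamonds with names are each gene's brightest probe set, the dotted line is the floor (6.65), dashed lines mark 1.5-fold, and BBC3 is the named gene farthest from 0.

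Short motifs were looked up in the start regions on both strands. The table held windows for 8 of the 10 genes (10 windows), and MCL1 and BIK were not among them. Besides the matches marked above, the FOXO motif GTAAACA was found once in BCL2L11, the CRE half-site TGACGT once in PMAIP1, and the E2F motif TTTNNCGC once in BCL2L1. BCL2 and BMF held no match to the 6 motifs searched. Of all 35116 windows, CACGTG was in 7.26%, TGANTCA in 7.71%, GTAAACA in 3.42%, TGACGT in 7.98%, TTTNNCGC in 6.89% and the p53 half-site in 6.63%. CACGTG thus occurred in BBC3, which was lower, and in BAX, whose readings disagreed. A match describes letters in a window and shows no binding.

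Genes that act with the family were grouped in 6 lists. None of the 8 further BCL2 family genes past the floor reached 1.5-fold in its brightest probe set. Of all genes past the floor, 4.95% were at least 1.5-fold higher and 6.74% lower. The median difference of the 8 was 0.16, beside 0.03 over all genes. BOK, an effector-like protein, came nearest in the upward direction (8.61 on the knockdown array and 8.04 on the control array, 0.57). BNIP3L, a mitophagy receptor, was lowest (11.1 on the knockdown array and 11.5 on the control array, -0.48), and all 6 of its probe sets were below 0. The remaining 5 of the 13 genes lay below the floor.

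The list of apoptosome proteins, released mitochondrial factors and caspases, with DFFA and DFFB, had 9 genes past the floor. All 9 were above 0, where 53.4% of all genes past the floor were, and 2 of the 9 were at least 1.5-fold higher, where 4.95% of all genes were (median 0.23, but -0.28 on the hybridisation-control scale). The list named 13 genes, of which 11 were read. DFFA, the inhibitor and chaperone of the caspase-activated nuclease, read 8.34 on the knockdown array and 7.63 on the control array, 1.64-fold higher (0.71), and all 4 of its probe sets were above 0. CASP2, an initiator caspase, read 9.82 on the knockdown array and 9.18 on the control array (0.65). APAF1, the scaffold of the apoptosome, lay below the floor (5.54 on the knockdown array and 5.57 on the control array), as did DFFB, the nuclease itself (6.22 on the knockdown array and 6.04 on the control array). Of 7 inhibitor of apoptosis genes listed, 6 were read. None of the 5 past the floor reached 1.5-fold, beside 4.95% of all genes higher and 6.74% lower (median -0.06). BIRC2 was highest (10.9 on the knockdown array and 10.8 on the control array, 0.20) and BIRC6 lowest (8.38 on the knockdown array and 8.58 on the control array, -0.21).

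Among 13 binding partners, ligases and deubiquitinases of family proteins, none was 1.5-fold higher and 1 was 1.5-fold lower, beside the same 4.95% and 6.74% of all genes (median 0.09). FBXW7, which marks MCL1 protein for breakdown, read 8.23 on the knockdown array and 8.94 on the control array, 1.64-fold lower (-0.72), and its 3 probe sets were all below 0. Of 14 transcription factors read, from 16 listed as acting on family genes, only 1 reached 1.5-fold, upward, as 4.95% of all genes did (median -0.04). E2F1, which drives S-phase genes and can induce BH3-only genes, read 8.44 on the knockdown array and 7.40 on the control array in its 1 probe set, 2.05-fold higher (1.04). In their brightest probe sets the 3 FOXO genes read were lower within 1.5-fold, at -0.41 for FOXO1, -0.28 for FOXO3 and -0.24 for FOXO4. The 4 FOXO1 probe sets were all below 0 and reached -0.75. Of the 7 FOXO4 probe sets, 1 was above 0. Of 13 p53 targets read outside the family, from 15 listed, 2 were at least 1.5-fold higher and 2 at least 1.5-fold lower, beside 4.95% and 6.74% of all genes (median -0.08). TP53I3, an oxidoreductase gene, was 2.15-fold higher (7.69 on the knockdown array and 6.59 on the control array), and the nuclease gene AEN was 1.79-fold higher (8.61 on the knockdown array and 7.77 on the control array). TP53INP1, a stress-response gene, was 1.91-fold lower (8.41 on the knockdown array and 9.34 on the control array), and the repair gene XPC was 1.63-fold lower (6.59 on the knockdown array and 7.29 on the control array). BBC3 was thus lower beside p53 targets that lay on both sides of 0. TP53INP1 averaged -0.50 over its 2 probe sets.

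**Figure D4:**
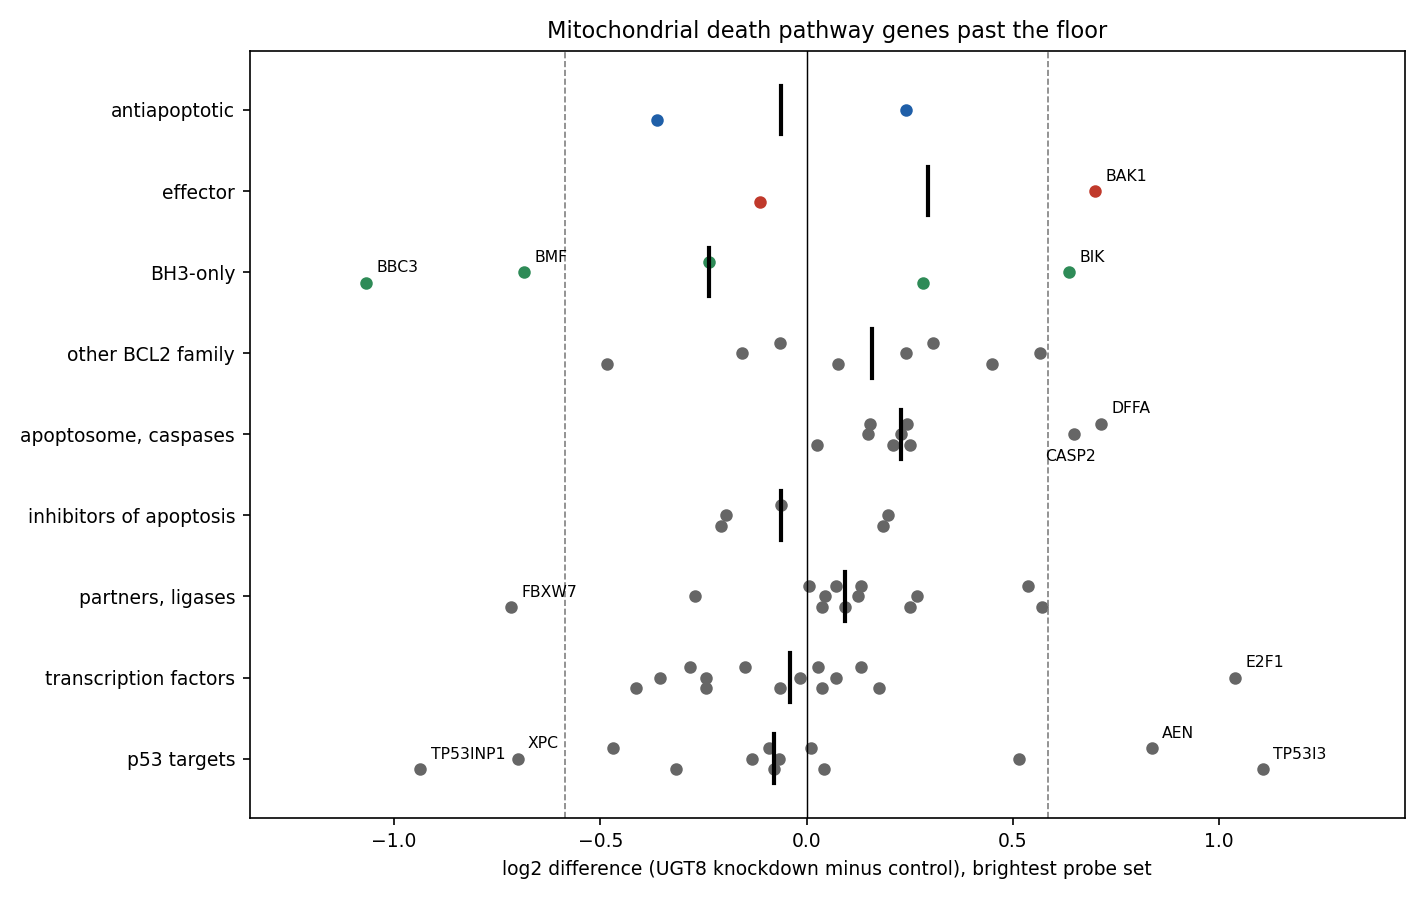
Log2 difference (UGT8 knockdown minus control) of the brightest probe set of each gene past the floor, by class of the family or by list. Each point is a gene, black bars are medians, dashed lines mark 1.5-fold, and genes past them are named. Among the rows drawn, only that of apoptosome and caspase genes lies wholly above 0 on the deposited scale.

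How the probe sets were combined changed some of these readings. With the mean of a gene's probe sets in place of the brightest, BAK1 differed by 0.40 and BMF by -0.28, both within 1.5-fold, and BAX by 0.23, on the other side of 0. BBC3 (-0.79) and BIK (0.68) stayed past 1.5-fold. The 18 hybridisation control probe sets had a median difference of 0.51. Setting that to 0 subtracts it from every difference. Then no probe set of the 10 genes past the floor was 1.5-fold higher and 11 were 1.5-fold lower. Of all 22902 probe sets past the floor, 98 were then higher and 8917 lower. BBC3 then read -1.58, MCL1 -0.88, BIK 0.12 and BAK1 0.19. On that scale BCL2L1 (-0.27), PMAIP1 (-0.23) and BCL2 (-0.40) were below 0. Centring on the poly-A control RNAs (median difference 0.08) gave 2 probe sets higher and 4 lower, with the brightest BIK probe set at 0.56, within 1.5-fold. Over all probe sets past the floor it gave 726 higher and 2081 lower. The directions above hold on the deposited scale.

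**Figure D5:**
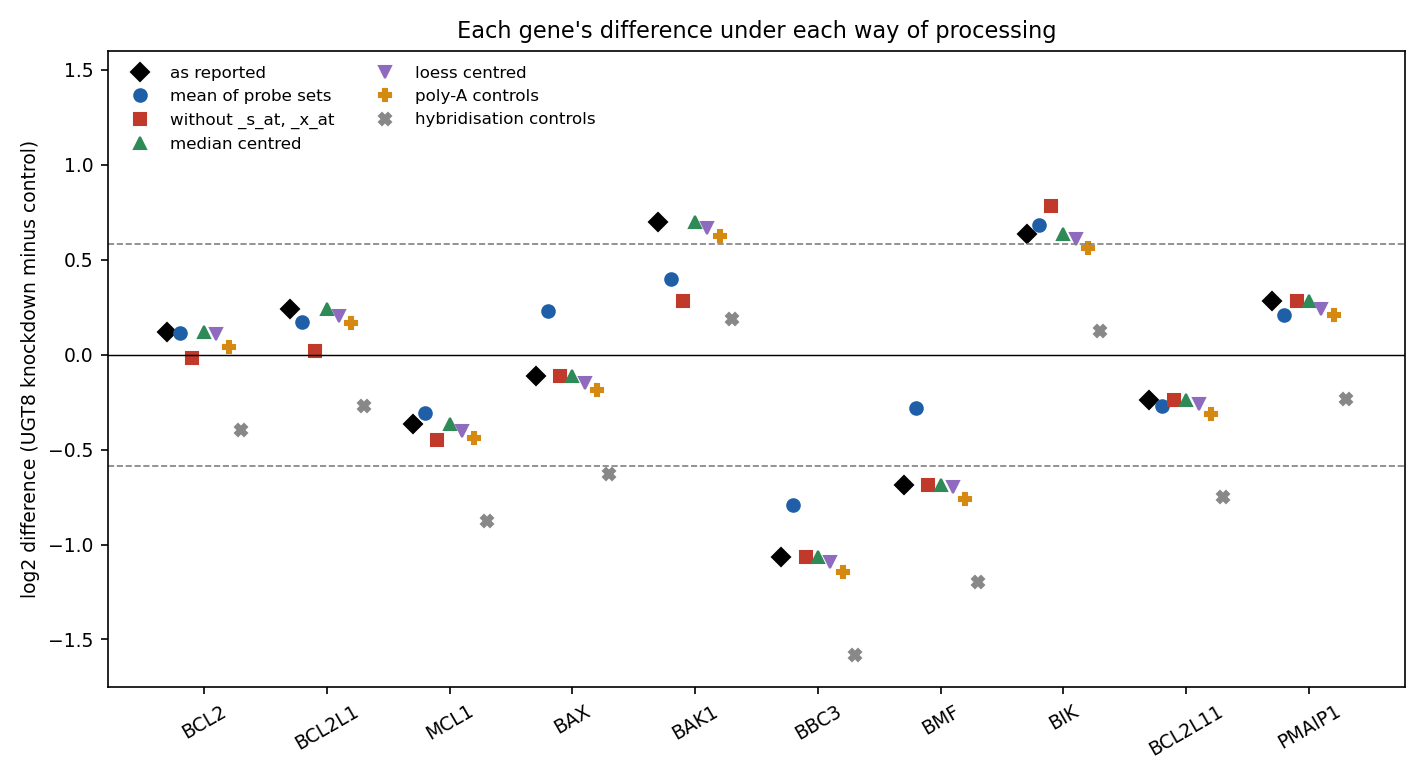
Log2 difference (UGT8 knockdown minus control) of each of the 10 genes as reported and under 6 other ways of processing, with dashed lines at 1.5-fold. BBC3 lies below the lower line and MCL1 and BCL2L11 below 0 throughout, and the hybridisation-control scale (grey crosses) is the lowest point of each gene.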

How the data were processed

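The authors deposited log2 expression values for both arrays, summarised with RMA per the submitters' processing notes. The program, its version and the array's genome build are not named in the labels or headers. Sorted values of the arrays differ by at most 0.07. Scanner files were not analysed here. Probe sets were named through GEO's platform annotation (18201 of 18244 symbols, 99.8%, are in RefSeq's table for GRCh38.p14). Of 49495 probe sets, 202 controls (100 of them ERCC spike-ins), 1333 with several symbols and 2682 with none in the table were left out. A gene was read by the probe set with the highest mean. The genes named are all members, and in each other list up to 4 genes past the floor and past 1.5-fold, otherwise the extreme in each direction. APAF1, DFFB and the FOXO genes were named outside this rule with their values in view, and cell markers come from lists of their own. The code that counts probe sets past a fold threshold was run on planted differences without noise. Its outcome was fixed in advance, so it does not show how reliable the counts are in these data. Alternatives were other floors, folds, probe set rules and centrings (loess fraction 0.3). Python 3.11.15, pandas 2.3.3 and statsmodels 0.14.6 were used. The members and lists were chosen with earlier results of these data known. No significance test was run, as each group holds 1 array.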

Additional observations from a re-analysis of the deposited data

How the results depend on the processing

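No paired analysis was possible because each group holds 1 array. A value is taken as moved when it shifts by more than 0.08, the typical SD between probe sets of 1 gene, and a count when it shifts by more than 1.5 times. Centring on the median or by loess moved none of the 23 results compared. The cause of each shift was not tested, apart from those the setting itself makes.

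Probe sets of the 10 genes past 1.5-fold were 5 higher and 2 lower. They were 3 and 0 for a 75th percentile floor, 0 and 1 at 2-fold, 0 and 11 on the hybridisation-control scale, and 2 and 4 on the poly-A scale. Over all probe sets with 1 symbol the poly-A scale gave 726 higher and 2081 lower, and the next paragraph gives the other settings. At a looser threshold, 0.32 on the log2 scale, 8 were lower, and without _s_at and _x_at probe sets 3 were higher.

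Over all probe sets with 1 symbol, 1060 were higher and 1620 lower. With no floor 1612 were higher. The counts were 412 and 818 for a 75th percentile floor, 143 and 378 at 2-fold, 3852 and 3947 at the looser threshold, and 98 and 8917 on the hybridisation-control scale. By gene, 516 were higher and 703 lower, and the same settings gave 242 and 402, 77 and 161, 1876 and 1679, and 50 and 3865. The share of higher genes among those past 1.5-fold was 42.3%, 28.1% on the poly-A scale and 1.28% on the hybridisation-control scale, and for probe sets 39.6%, 25.9% and 1.09%.

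Without _s_at and _x_at probe sets BCL2 read -0.020, BCL2L1 0.018, MCL1 -0.45, BAK1 0.28 and BIK 0.78. Averaged over probe sets, BAX read 0.23, BAK1 0.40, BBC3 -0.79 and BMF -0.28. On the hybridisation-control scale BCL2 read -0.40, BCL2L1 -0.27, MCL1 -0.88, BAX -0.63, BAK1 0.19, BBC3 -1.58, BMF -1.20, BIK 0.12, BCL2L11 -0.75 and PMAIP1 -0.23.

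The median of the member genes (-0.11) was 0.0016 both without a floor and for a 25th percentile floor, 0.26 for a 75th percentile floor, 0.17 after averaging and -0.63 on the hybridisation-control scale. It therefore has no stable sign. The other BCL2 family genes had a median of 0.25 after averaging. Inhibitor of apoptosis genes had 0.19 for a 75th percentile floor, and 0.053 without _s_at and _x_at probe sets. Transcription factors had -0.24 without those probe sets. On the hybridisation-control scale the medians were -0.35 for other BCL2 family genes, -0.28 for apoptosome and caspase genes, -0.58 for inhibitors of apoptosis, -0.42 for binding partners and ligases, -0.55 for transcription factors and -0.59 for p53 targets.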
